A study of Mus musculus with 6 samples.

Results

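The genes that build and regulate the DNA replication machinery were followed across 6 cultures of mouse fallopian tube organoids, which are hollow structures of oviduct epithelium grown in matrix. The members are 49 genes listed by symbol: origin licensing factors, the MCM helicase and its activators, replicative polymerases, clamp loaders, Okazaki fragment enzymes, enzymes of deoxynucleotide supply, chromatin assembly factors, and the E2F and cyclin E genes that drive entry into S phase. They were found through the RefSeq transcript that each probe carries, and the rule itself used no measured value. The 49 genes carry 71 named probes, among 23765 genes with 34566 named probes in all. A probe counts as detected where the scanner software called it well above background. 48 of the 49 genes had such a probe on at least 1 array and 47 had one on every array. Cdc45 was detected on 5 arrays, all but the control's. Ccne2, the gene of cyclin E2, was detected on no array and enters no count below.

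RNA of each culture was read on a single one-colour Agilent array, so each group is 1 array. The control carried the vector pLKO.1, in organoids of Trp53flox/flox mice. The other 5 cultures were labelled as having lost Trp53, the gene of the tumour suppressor p53. The culture called Trp53 loss has no further alteration on its label. Pik3ca/Trp53 adds Pik3caH1047R, an activating form of the PI3-kinase catalytic subunit, and Apc/Trp53 adds Apc580D, an allele of the Wnt antagonist Apc. Both double mutants were also measured as organoids re-grown from the subcutaneous lesion they gave, which was labelled adenocarcinoma for Pik3ca/Trp53 and cyst for Apc/Trp53. These are called tumour-derived and cyst-derived here, and the double mutants before growth in the animal are their sources. All were from female mice, and the transduced organoids were grown without serum, with Noggin, R-spondin1, EGF, Jagged-1, the ROCK inhibitor Y27632 and CHIR-99021, a GSK3 inhibitor that activates Wnt signalling. The labels do not say how Trp53 was lost, in which cells the alleles were active, whether a culture was a clone or a pool, the animals' age, or how host cells were removed from the lesions. The design names 3 pairs of cultures before and after growth in the animal. 2 pairs were analysed here.

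Before S phase, the origin recognition complex with Cdc6 and Cdt1 loads the MCM helicase onto DNA, and Cdc45 and the GINS complex then switch it on. Primase and the polymerases copy the unwound strands behind it, held by the clamp Pcna, while ribonucleotide reductase and thymidylate enzymes supply the building blocks. Many of these genes are switched on by E2F transcription factors in late G1, and the level of their RNA is widely used to describe how much of a culture is in cycle. In the oviduct, secretory cells can divide and multiciliated cells do not.

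Levels below are log2 of the processed array intensity minus that array's 75th percentile, averaged over a gene's detected probes, and a difference is 1 level minus another on the same log2 scale. Levels of different genes come from different probes and cannot be set against each other. With 1 array per group no error between cultures is known and no 2-array difference has a test. Instead, members are counted at differences of at least 2-fold and 1.5-fold beside the share of all measured genes that pass the same fold. Copies of the same probe on an array varied by a median SD of 0.04 to 0.08 (300 probes in 10 copies), and different probes of the same gene gave differences that varied by a median SD of 0.13 to 0.21. Both cover technical spread alone. Pik3ca/Trp53 had the noisiest array, with the highest SD between copies, the lowest share of probes well above background (45.4%, against 48.1% to 51.0% on the others) and 238 outlier spots against 58 to 131.

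The targeted gene was checked on every array first. The level of Trp53 was 0.89 in control, -6.59 with Trp53 loss alone, -5.02 in the Pik3ca/Trp53 source and -1.62 in its tumour-derived line, -3.57 in the Apc/Trp53 source and -6.68 in its cyst-derived line. All 5 cultures labelled as lacking Trp53 were below control, but in 2 of them, Pik3ca/Trp53 tumour-derived and Apc/Trp53, the probe was still well above background. Whether the probe lies in a deleted part of the gene is not known. Cdkn1a, a p53 target that encodes the CDK inhibitor p21, had a level of 2.46 in control and of -3.31 to -0.94 in the other 5. All 7 epithelial markers (such as Epcam and Krt8) were well above background on all arrays, as were 5 of 6 secretory markers, among them Pax8 and Ovgp1. Levels of the secretory markers differed between cultures. In the tumour-derived Pik3ca/Trp53 line minus its source 5 were lower and 1 was higher, with a median of -1.87. In the cyst-derived line minus its source 4 of 5 measured were higher and 1 was lower, with a median of 0.16. The part of these markers in the members' levels was not tested. Of 9 multiciliated markers, 4 to 7 were detected per array, and Dnah5 and Dnah9 on none.

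The members were lowest in the control and highest in Pik3ca/Trp53. The control array held the lowest level of 35 of 48 members, against 20.3% of the 12556 genes detected on all arrays. The Pik3ca/Trp53 array held the highest level of 33 of 48, against 21.9% of those genes. Members were ranked over probes detected on at least 1 array, and those genes over probes detected on all 6. Uhrf1 is among the 33 only through a probe well above background in Pik3ca/Trp53 alone. The median member stood above control by 0.30 with Trp53 loss alone, 1.11 in Pik3ca/Trp53 and 0.63 in its tumour-derived line, 0.53 in Apc/Trp53 and 0.59 in its cyst-derived line, while the median of all genes differed from control by between -0.01 and 0.10. Fewer cells in S phase and less of each RNA per cell cannot be told apart in RNA of whole cultures. Non-members differed between the cultures too. The summed level of the multiciliated markers, on the log2 scale, was 1.41 in control, 0.06 with Trp53 loss alone, -0.75 in the Pik3ca/Trp53 source and 0.42 in its tumour-derived line, -0.14 in the Apc/Trp53 source and 0.01 in its cyst-derived line. Summed levels in this report take each gene over all its probes, dim ones included, so they are not on the measure of the other levels. Mcidas alone had a level of 2.55 in control over its detected probe. The multiciliated sum was highest in control, where the replication genes were lowest, and lowest in Pik3ca/Trp53, where they were highest. The cultures in between did not follow this order. The tumour-derived Pik3ca/Trp53 line had the next highest sum (0.42) and also the next highest median member (0.63). The part of these markers in the result was not tested.

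**Figure D1:**
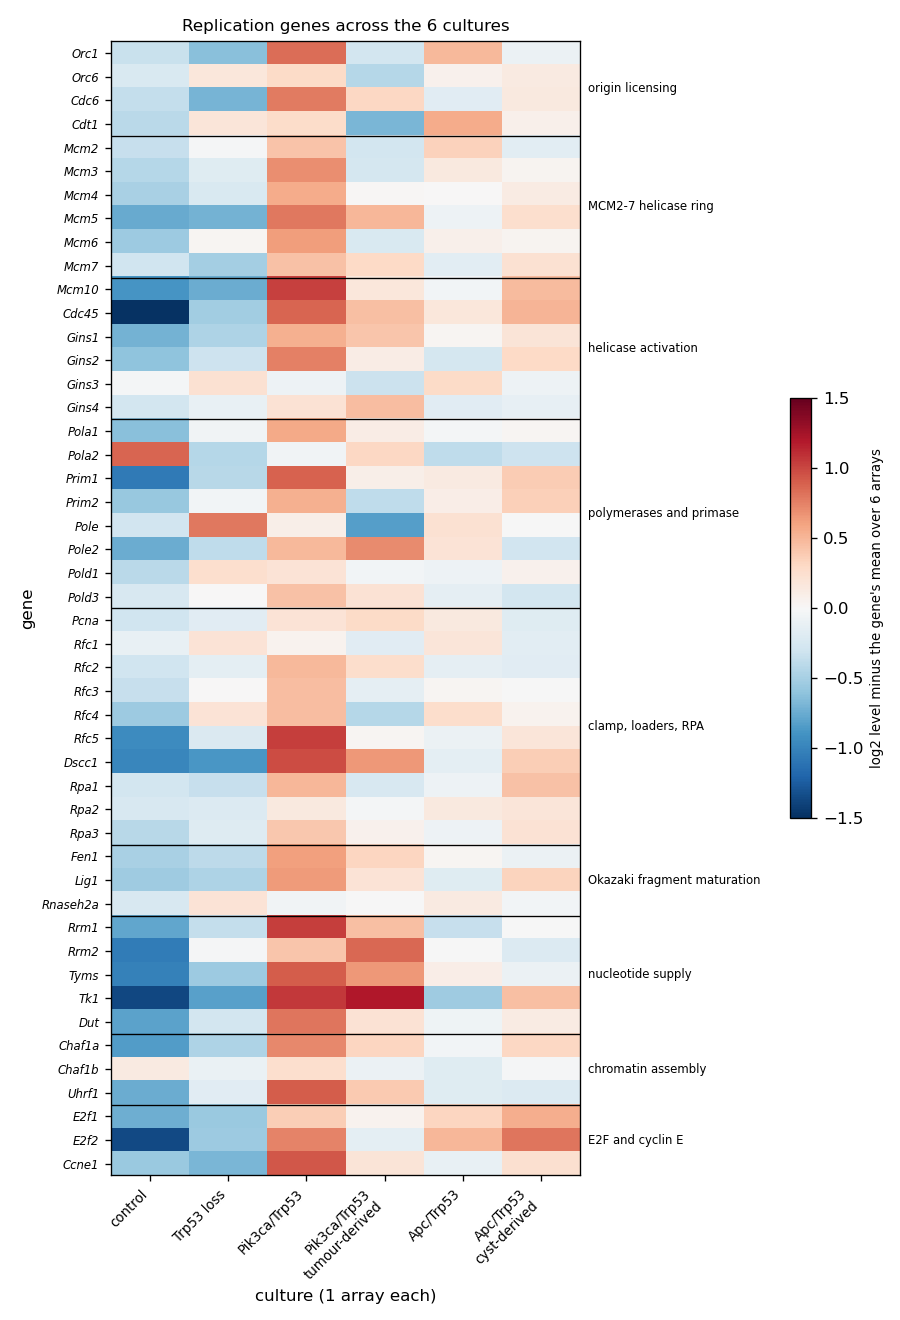
Level of each of the 48 detected members (rows, grouped by role) on the 6 arrays (columns), as log2 level minus the gene's own mean over the 6 arrays. Blue is below and red above the gene's mean, and the colour scale ends at 1.5 on either side. The control column is mostly blue and the Pik3ca/Trp53 column mostly red, with 35 of 48 members lowest in the former and 33 of 48 highest in the latter.

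Among the origin licensing genes, Cdc6 and Orc1 had the largest range. Cdc6, the ATPase that recruits the MCM ring, had levels of -2.12 in control, -2.46 with Trp53 loss alone, -0.99 in the Pik3ca/Trp53 source and -1.45 in its tumour-derived line, -1.93 in the Apc/Trp53 source and -1.62 in its cyst-derived line. It was lowest in Trp53 loss and highest in Pik3ca/Trp53. Orc1, the largest subunit of the origin recognition complex, was read by a pair of probes that differed. The probe detected on all 6 arrays gave -2.32, -1.88, -1.11, -1.84, -1.40 and -1.93 in the same order of cultures, and the other was well above background on 2 arrays alone, at -3.59 in Pik3ca/Trp53 and -4.01 in Apc/Trp53. Both were highest in Pik3ca/Trp53 and next highest in Apc/Trp53, and the first was lowest in control. Cdt1, the other MCM loader, was unlike them: its level was highest in Apc/Trp53, at 3.43, and lowest in Pik3ca/Trp53 tumour-derived, at 2.20. Orc6 ranged by 0.71 and was lowest in that same tumour-derived culture.

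All 6 subunits of the MCM2-7 ring, the motor of the replicative helicase, were highest in Pik3ca/Trp53, and 5 of them (all but Mcm7) were lowest in control. For Mcm7 this is the mean of 2 probes that differed. The brighter was highest in Pik3ca/Trp53, and the other in the cyst-derived culture (-3.48, against -3.65 in Pik3ca/Trp53). Mcm5 had a level of 0.29 in control, 0.34 with Trp53 loss alone, 1.84 in the Pik3ca/Trp53 source and 1.55 in its tumour-derived line, 0.97 in the Apc/Trp53 source and 1.31 in its cyst-derived line. Control and Trp53 loss differed by 0.04 and the other 4 were higher. Mcm6 had levels of 0.20, 0.77, 1.37, 0.52, 0.82 and 0.79 in that order, so its tumour-derived Pik3ca/Trp53 value lay between control and Trp53 loss rather than near its source. Mcm2, Mcm3, Mcm4 and Mcm7 ranged by 0.77 to 1.12.

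The factors that activate the helicase spread more widely. Mcm10, which binds the assembled helicase as origins fire, had levels of -0.80 in control, -0.66 with Trp53 loss alone, 1.11 in the Pik3ca/Trp53 source and 0.25 in its tumour-derived line, 0.04 in the Apc/Trp53 source and 0.55 in its cyst-derived line. Cdc45, the subunit whose arrival marks the active helicase, stood at -5.27 (not well above background), -4.30, -2.92, -3.34, -3.62 and -3.28. For both genes control was lowest, Trp53 loss next and Pik3ca/Trp53 highest. Of the GINS subunits, Gins1 and Gins2 followed the same order at both ends, while Gins3 did not: its level stayed between 4.24 and 4.85 and was highest in Apc/Trp53. Gins4 was highest in the tumour-derived Pik3ca/Trp53 culture.

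The polymerase and primase genes did not move as a block. Prim1, the catalytic subunit of primase, had levels of 0.73 in control, 1.37 with Trp53 loss alone, 2.68 in the Pik3ca/Trp53 source and 1.87 in its tumour-derived line, 1.92 in the Apc/Trp53 source and 2.16 in its cyst-derived line. Pole, the catalytic subunit of the leading-strand polymerase, had levels of 1.08, 2.16, 1.45, 0.55, 1.60 and 1.37 in that order. Prim1 was thus highest in Pik3ca/Trp53, and Pole was highest in Trp53 loss and lowest in the tumour-derived Pik3ca/Trp53 culture. Pola2, the accessory subunit of DNA polymerase alpha, was the only member with its highest level in control, at -1.95 against -3.26 to -2.52 in the other 5 cultures. Its catalytic partner Pola1 showed the opposite order at the low end, with -0.97 in control and -0.40 to 0.23 in the others.

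Clamp and loader genes held both the quietest and some of the most variable members. Rfc5, a small subunit of the clamp loader RFC, had levels of 2.18 in control, 2.91 with Trp53 loss alone, 4.16 in the Pik3ca/Trp53 source and 3.16 in its tumour-derived line, 3.03 in the Apc/Trp53 source and 3.31 in its cyst-derived line. Dscc1, part of an alternative loader that works in sister chromatid cohesion, had levels of -3.38, -3.28, -1.42, -1.75, -2.54 and -2.03. Both were highest in Pik3ca/Trp53. Rfc1, the large RFC subunit, had the smallest range of all members, 0.37, and Pcna, the clamp itself, ranged by 0.60 with its highest level in Pik3ca/Trp53 tumour-derived. Among Okazaki fragment enzymes, Lig1, the ligase that seals the fragments, had levels of 0.32, 0.39, 1.49, 1.06, 0.67 and 1.19, low in control and Trp53 loss and highest in Pik3ca/Trp53. The flap endonuclease gene Fen1 was also lowest in control and highest in Pik3ca/Trp53, with a range of 1.1. Rnaseh2a, the catalytic subunit of RNase H2, ranged by 0.43.

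The nucleotide supply genes had the widest ranges. Tk1, cytosolic thymidine kinase, had the largest range of any member, 2.56, with levels of 0.13 in control, 0.67 with Trp53 loss alone, 2.55 in the Pik3ca/Trp53 source and 2.69 in its tumour-derived line, 0.95 in the Apc/Trp53 source and 1.93 in its cyst-derived line. Tyms, thymidylate synthase, had levels of 0.92, 1.39, 2.84, 2.59, 2.04 and 1.84 in that order. Both Pik3ca/Trp53 cultures were above all 4 others for each of these genes, and control was lowest. The same separation held for Rrm1, the large subunit of ribonucleotide reductase (3.15 and 2.56 in the Pik3ca/Trp53 cultures against 1.34 to 2.10), for Rrm2, its small subunit (2.43 and 2.87 against 0.97 to 2.01), and for Dut, the dUTPase (2.0 and 1.41 against 0.39 to 1.32).

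Uhrf1, which reads hemimethylated DNA behind the fork and recruits the maintenance methyltransferase, was read by a pair of probes for different transcripts. The probe detected on all arrays gave levels of 1.21 in control, 1.95 with Trp53 loss alone, 2.78 in the Pik3ca/Trp53 source and 2.8 in its tumour-derived line, 2.07 in the Apc/Trp53 source and 2.10 in its cyst-derived line. The other was well above background in 1 culture, Pik3ca/Trp53, at -3.78. By the first probe both Pik3ca/Trp53 cultures were above the others. Chaf1a, a subunit of the histone chaperone that assembles chromatin on new DNA, was lowest in control, at -0.55, and highest in Pik3ca/Trp53, at 1.00, while its partner Chaf1b ranged by 0.43.

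The regulators E2f1 and E2f2, activators of S phase genes, were the members that stood highest in the cyst-derived culture, together with Rpa2. E2f2 had levels of -2.46 in control, -1.64 with Trp53 loss alone, -0.36 in the Pik3ca/Trp53 source and -1.24 in its tumour-derived line, -0.61 in the Apc/Trp53 source and -0.30 in its cyst-derived line. Both Apc/Trp53 cultures and Pik3ca/Trp53 lay within 0.31 of each other, above the other 3. Ccne1, the cyclin E gene that partners CDK2 at the start of S phase, had levels of 0.00, -0.12, 1.49, 0.76, 0.45 and 0.80. Control and Trp53 loss were close together and Pik3ca/Trp53 was highest.

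**Figure D2:**
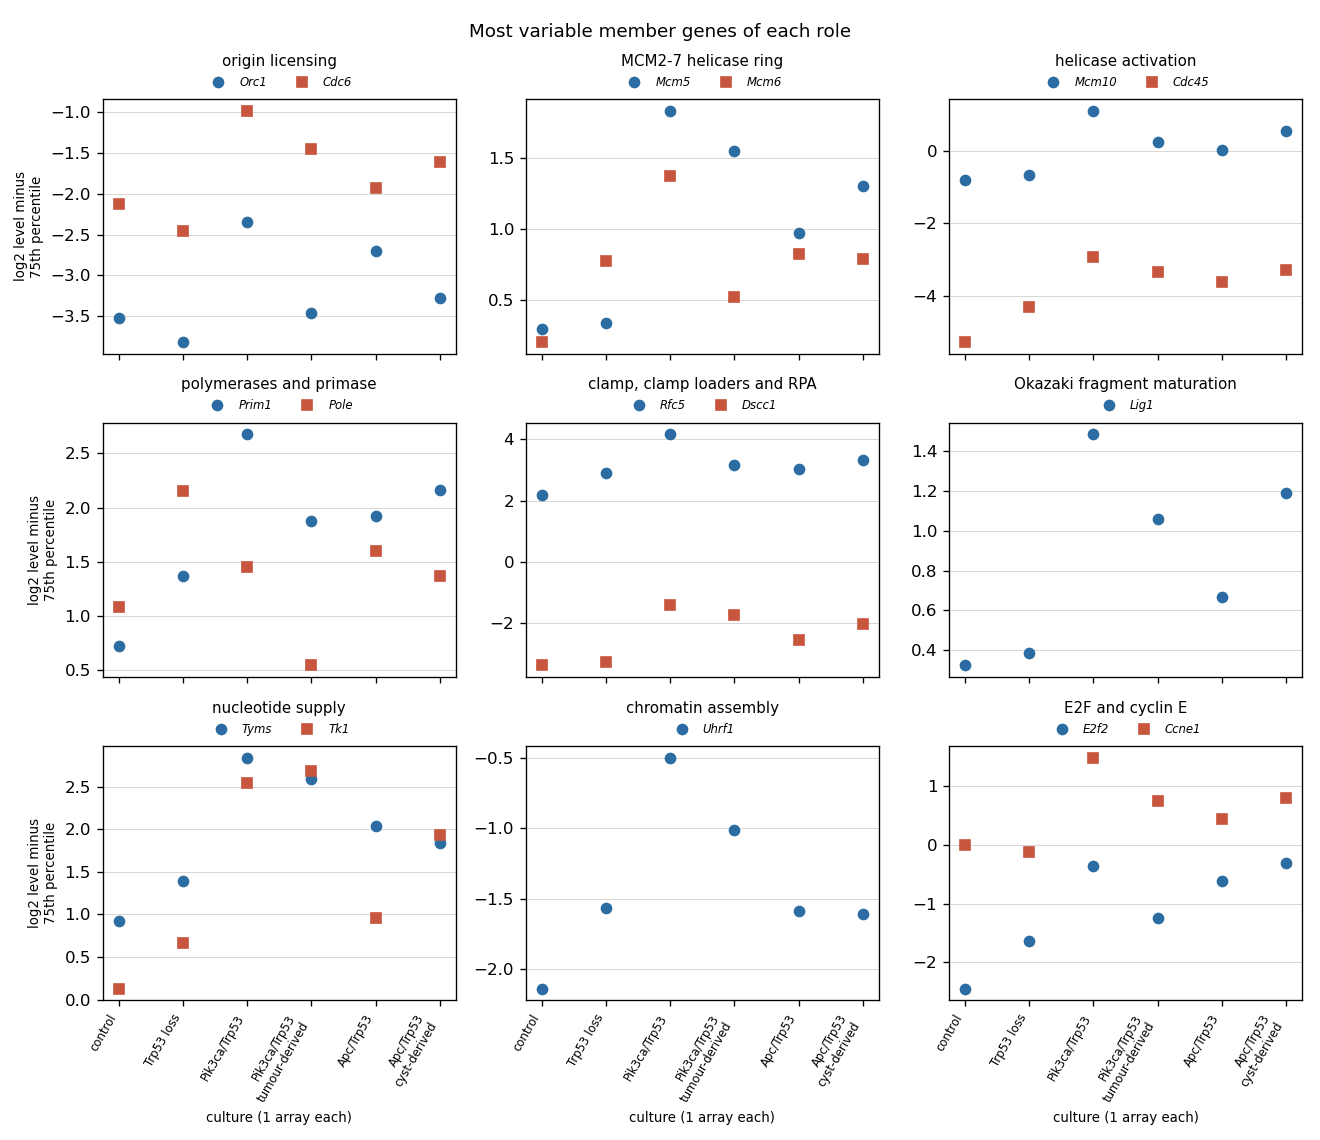
Levels (log2 intensity minus the array's 75th percentile) of the members with the largest range in each role group, 1 point per culture and 1 panel per group, with separate vertical scales. Each colour is a different gene read by different probes, so the height of a colour is to be compared along the panel and not with the other colour. Most of the genes are lowest in control or Trp53 loss and highest in Pik3ca/Trp53, and Pole is an exception, with 2.16 in Trp53 loss and 0.55 in Pik3ca/Trp53 tumour-derived.

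Over the 6 arrays, 40 of the 48 members had a correlation above 0.6 with the mean of the other members, as a description of 6 arrays that share slide and scaling. The correlation was not computed for genes outside the list, so no share of all genes stands beside this count. Dut (0.99), Mcm4 (0.99), Prim1 (0.98), Chaf1a (0.98) and Rfc5 (0.98) were nearest to the shared pattern. The 8 others were Orc6 (0.40), Cdt1 (0.30), Chaf1b (0.25), Rnaseh2a (0.16), Rfc1 (0.01), Pole (-0.11), Gins3 (-0.30) and Pola2 (-0.45). They came from 6 of the 9 role groups, and no member of the MCM ring, of nucleotide supply or of the E2F group was among them.

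Promoter letters were read because many of the members are known E2F targets. RefSeq promoter windows on GRCm38.p6, from 250 bases before to 50 after the start, were at hand for 40 members. E2F-type letters (TTTCCCGC, TTTCGCGC, TTTGCCGC or TTTGGCGC, either strand) lay in the windows of 16 of the 40 members (40%), against 4.69% of 10039 genes detected on all arrays and 3 of 22 mitosis genes (13.6%). The letters CCAAT, the NF-Y box, lay in 24 of 40 (60%), against 43.0% of detected genes and 19 of 22 mitosis genes (86.4%). The CHR letters TTTGAA or TTCGAA (either strand for both, and neither is contained in the E2F-type letters), known from G2 and mitosis promoters, lay in 7 of 40 (17.5%), against 16.6% of detected genes and 18 of 22 mitosis genes (81.8%). Counted by gene, the E2F-type letters were in a window of 4 of 5 MCM genes and 3 of 4 licensing genes, and of 0 of 5 nucleotide supply genes, the group with the widest ranges. Members with the letters had a median range of 1.18 (n = 16) and those without 1.29 (n = 24). A match describes a sequence and is no evidence of binding, and a window without these letters may hold other sites. The stretches below are 90 bases long and lie upstream of the start of members described above. They end at the start for Mcm6, Orc1 and Rrm2, and run from 190 to 100 bases before it for Mcm5, from 179 to 89 for Cdc6 and from 226 to 136 for Uhrf1. They are printed with the E2F-type letters in capitals, or CCAAT in capitals for Rrm2, whose window holds no E2F-type letters.
Mcm5 (chr8:75109319-75109408, plus strand): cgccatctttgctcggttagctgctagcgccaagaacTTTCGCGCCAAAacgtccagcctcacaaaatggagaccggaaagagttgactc
Mcm6 (chr1:128359706-128359795, minus strand): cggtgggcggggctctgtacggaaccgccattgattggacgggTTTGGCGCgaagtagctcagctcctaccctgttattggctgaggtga
Orc1 (chr4:108579364-108579453, plus strand): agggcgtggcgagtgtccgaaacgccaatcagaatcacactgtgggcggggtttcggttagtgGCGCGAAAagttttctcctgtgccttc
Cdc6 (chr11:98907972-98908061, plus strand): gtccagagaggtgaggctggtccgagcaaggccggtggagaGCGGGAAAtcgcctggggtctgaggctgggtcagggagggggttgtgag
Uhrf1 (chr17:56304087-56304176, plus strand): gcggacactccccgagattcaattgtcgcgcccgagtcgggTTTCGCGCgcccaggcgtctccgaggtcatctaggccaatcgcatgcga
Rrm2 (chr12:24708164-24708253, plus strand): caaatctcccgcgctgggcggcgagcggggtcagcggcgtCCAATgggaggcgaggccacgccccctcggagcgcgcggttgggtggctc
In Mcm5 an E2F-type match on each strand overlaps the other, in Orc1 and Cdc6 the match is on the reverse strand, and the Mcm6 window holds 3 matches, of which 1 falls in the stretch shown. These members were all higher in Pik3ca/Trp53 than in control, as was Rrm2 without the letters.

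Loss of Trp53 alone was set against the control. The members were mostly slightly higher: 42 of 48 were higher (54.8% of all genes measured were), with a median difference of 0.32, beside 0.05 for all 14361 genes. 2 members were at least 2-fold higher (6.02% of all genes) and 1 was at least 2-fold lower (7.38%). Pole was 2.10-fold higher, Rrm2 was 2.03-fold higher and Pola2 was 2.47-fold lower. At 1.5-fold, 9 were higher (11.9%) and 1 was lower (13.5%). The 2-fold counts among 48 members are no larger than these background shares. By role the median difference was 0.55 for polymerases and primase and 0.53 for nucleotide supply, and 0.09 for Okazaki fragment enzymes. The control lay in slide row 2 and Trp53 loss in row 1, so row and genotype cannot be told apart here.

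Pik3caH1047R on top of Trp53 loss went with the largest differences. 43 of 48 members were higher in Pik3ca/Trp53 than in Trp53 loss (53.8% of all genes), with a median difference of 0.85, beside 0.05 for all 14237 genes. 19 members were at least 2-fold higher (9.72% of all genes) and 0 were at least 2-fold lower (8.01%). At 1.5-fold, 31 were higher (18.2%) and 1 was lower (14.9%), which was Pole, at 1.63-fold lower. Where a probe was dim in Trp53 loss and its signal is raised to the lowest level well above background, 17 members remained at least 2-fold higher. Those left out were Orc1, at least 1.83-fold higher, and Uhrf1, at least 1.76-fold higher. Both arrays lay in slide row 1, but Pik3ca/Trp53 in column 2 and Trp53 loss in column 4, so column and genotype cannot be told apart. The part that the higher noise of the Pik3ca/Trp53 array has in these counts was not tested.

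The members with the greatest differences in this comparison came from several roles. Tk1 was 3.68-fold higher, Dscc1 3.63-fold, Mcm10 3.40-fold and Ccne1 3.05-fold. They were followed by Mcm5 (2.83-fold), Cdc6 (2.78-fold), Tyms (2.74-fold), Rrm1 (2.63-fold), Cdc45 (at least 2.50-fold), Prim1 (2.48-fold), E2f2 (2.44-fold) and Rfc5 (2.38-fold). Chaf1a, Lig1, Dut, Gins2 and Fen1 were between 2.02-fold and 2.27-fold higher. By role the median difference was 1.40 for nucleotide supply (5 of 5 higher), 1.29 for E2F and cyclin E (3 of 3), 1.07 for chromatin assembly, 1.03 for helicase activation, 1.01 for Okazaki fragment enzymes, 0.83 for the MCM ring (6 of 6), 0.79 for licensing (4 of 4), 0.53 for clamp and loaders, and 0.51 for polymerases and primase. The licensing median was 0.50 once the dim Orc1 probe was raised, and Cdt1 and Orc6 differed by 0.10 and 0.12. With normexp background correction of the raw signals the median of all members was 0.60 and 10 members were at least 2-fold higher.

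Apc580D on top of Trp53 loss went with smaller differences. 40 of 48 members were higher in Apc/Trp53 than in Trp53 loss (52.4% of all genes), with a median difference of 0.25, beside 0.02 for all 14463 genes. 2 members were at least 2-fold higher (5.36%) and 0 were 2-fold lower (5.26%). These were E2f2, at 2.05-fold, and Orc1, at 2.16-fold as measured and at least 1.43-fold once its dim probe is raised to the background limit. At 1.5-fold, 8 were higher (10.6%) and 0 were lower (10.7%). The E2F and cyclin E group had the highest median of the roles, 0.87, and polymerases and primase the lowest, 0.04. These arrays also lay in slide row 1, with Apc/Trp53 in column 1 and Trp53 loss in column 4, so column and genotype cannot be told apart.

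Set directly against each other before growth in the animal, Pik3ca/Trp53 was above Apc/Trp53 for 43 of 48 members (53% of all genes), with a median difference of 0.55, beside 0.03 for all 14442 genes. 8 members were at least 2-fold higher in Pik3ca/Trp53 (8.15%) and 0 were 2-fold lower (6.88%). At 1.5-fold, 20 were higher (15.8%) and 0 were lower (13.1%). The 8 were Tk1 (3.02-fold), Rrm1 (2.60-fold), Rfc5 (2.18-fold), Dscc1 (2.18-fold), Mcm10 (2.10-fold), Ccne1 (2.06-fold), Gins2 (2.02-fold) and Uhrf1 (2.13-fold as measured and at least 1.88-fold with its dim probe raised). The median by role was 0.87 for nucleotide supply and 0.25 for E2F and cyclin E, where E2f1 differed by 0.05 and E2f2 by 0.25. With normexp background correction the median was 0.39 and 3 members were at least 2-fold higher. Pik3ca/Trp53 lay in slide column 2 and Apc/Trp53 in column 1, so column and genotype cannot be told apart here either.

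**Figure D3:**
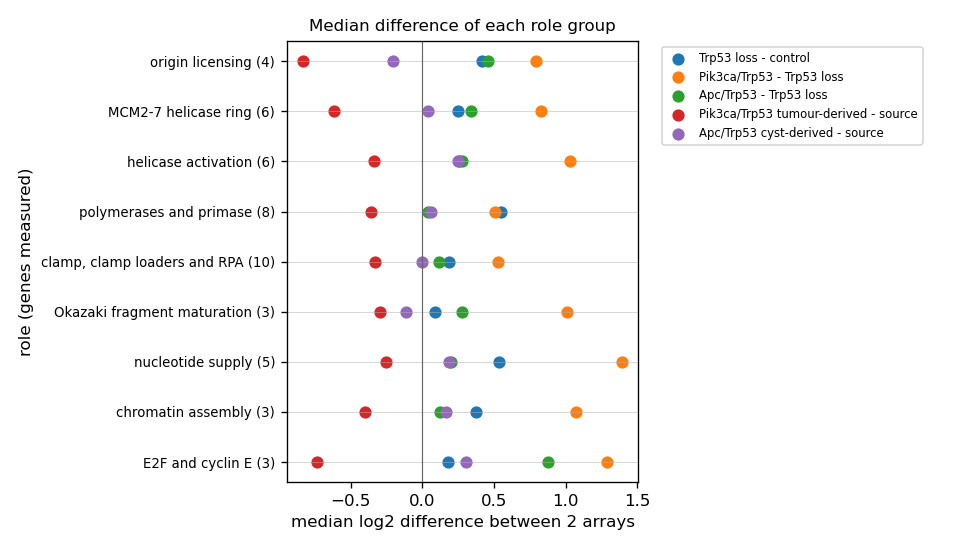
Median log2 difference of the measured members of each role (rows, with the number of genes) in 5 comparisons of 2 arrays (colours). Pik3ca/Trp53 minus Trp53 loss lies farthest right in 8 of 9 roles, from 0.53 for clamp and loaders to 1.40 for nucleotide supply, and for polymerases and primase it lies beside Trp53 loss minus control (0.51 and 0.55). The tumour-derived Pik3ca/Trp53 culture minus its source lies left of 0 in every role.

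Organoids re-grown from the Pik3ca/Trp53 adenocarcinoma were lower than their source for most members. 7 of 48 members were higher (44.3% of all genes), 41 were lower, and the median difference was -0.42, beside -0.09 for all 14727 genes. 0 members were at least 2-fold higher (14.1%) and 2 were at least 2-fold lower (11.3%). These were Rfc5, at 2.0-fold, and Orc1, at 2.16-fold as measured and at least 1.79-fold with its dim probe raised. The 2-fold count was 5 with arrays scaled to the median of all probes and 0 with normexp background correction. At 1.5-fold, 0 were higher (20.6%) and 17 were lower (22.5%). Of the 19 members that were 2-fold above Trp53 loss in the source, 18 were lower in the tumour-derived culture, and Tk1 was 1.1-fold higher. As these 2 comparisons share the source array, a high reading there raises the first difference and lowers the second. Without this choice 41 of all 48 members were lower. The share for all genes chosen in the same way was not counted, so 18 of 19 has no background share beside it.

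The median difference of every role was below 0. Licensing had a median of -0.83 (4 of 4 lower), E2F and cyclin E -0.73 (3 of 3), the MCM ring -0.62 (6 of 6) and nucleotide supply -0.25 (3 of 5). The 7 higher members were Rrm2 (0.44), Pola2 (0.36), Gins4 (0.25), Pole2 (0.22), Tk1 (0.14), Pcna (0.08) and Rnaseh2a (0.04).

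Organoids re-grown from the Apc/Trp53 cyst differed little from their source in the members. 30 of 48 were higher (47% of all genes) with a median difference of 0.09, beside -0.03 for all 14888 genes. 0 members were at least 2-fold higher (11.3%) or lower (8.04%), and 1 was at least 1.5-fold higher (17.9%), Tk1, at 1.98-fold, with 0 lower (15.9%). The sign of the median depends on scaling. With arrays scaled to the median of all probes it was -0.25, beside -0.37 for all genes. Helicase activation had a median of 0.25 and E2F and cyclin E 0.31 under the first scaling, and licensing had -0.20.

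Markers of other cell types were read beside the members in the lesion-derived cultures. Of 8 fibroblast markers, 3 were well above background in Pik3ca/Trp53 tumour-derived and 2 in Apc/Trp53 cyst-derived, against 1 and 0 in their sources and 0 in control and Trp53 loss. Their summed level was -1.62 and -2.47 in the lesion-derived cultures and -3.43 to -2.68 in the other 4, and Col3a1, Dcn, Lum and Thy1 were detected on no array. Of 9 leukocyte markers 4 to 6 were detected per array. Their summed level, dim probes included, was 3.71 in control, 3.39 with Trp53 loss alone, 2.31 in the Pik3ca/Trp53 source and 3.09 in its tumour-derived line, 1.99 in the Apc/Trp53 source and 0.66 in its cyst-derived line. This sum was above the source in 1 lesion-derived culture, below it in the other, and highest in control, but single markers went both ways. In the tumour-derived culture minus its source 5 measured markers were higher, such as S100a8 (0.87 against -3.86), and 1 was lower. In the cyst-derived culture minus its source 3 were higher, such as Ptprc (-3.10 against -7.14, dim), and 2 were lower, such as Cd68 (-0.54 against 1.64). Of 6 endothelial markers 3 were detected in the tumour-derived culture and 4 in the cyst-derived one, against 2 and 4 in their sources and 4 in control, and their summed level was lower than the source in the former (-1.41 against -0.14) and higher in the latter (0.69 against 0.47). 1 erythroid gene (Hba-a1) was detected in both lesion-derived cultures and in Apc/Trp53. Their part in the result was not tested. Source cultures lay in slide row 1 and lesion-derived ones in row 2, so row and growth in the animal cannot be told apart.

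Genes of mitosis, which are switched on later in the cycle than the members, were followed beside them, from a list of 25 genes such as Cdk1 and Ccnb1. In Trp53 loss minus control their median difference was 0.66, against 0.32 for the members. In Pik3ca/Trp53 minus Trp53 loss it was 1.62 and all 25 were at least 2-fold higher, against 19 of 48 members. In Pik3ca/Trp53 minus Apc/Trp53 it was 1.37, against 0.55 for the members. In Apc/Trp53 minus Trp53 loss both lists were close, at 0.30 and 0.25. In the cyst-derived culture all 25 mitosis genes were higher than in the source, with a median of 0.97 and 12 at least 2-fold higher, while the members had a median of 0.09 and 0 at least 2-fold higher. The medians of the lists were thus 0.87 apart in this comparison, 0.77 apart in Pik3ca/Trp53 minus Trp53 loss and 0.82 apart in Pik3ca/Trp53 minus Apc/Trp53. With arrays scaled to the median of all probes, the cyst-derived culture minus its source gave 0.63 for mitosis genes (23 of 25 higher). The members then had -0.25, so the medians were again 0.87 apart. In the tumour-derived Pik3ca/Trp53 culture all 25 mitosis genes were lower than in the source, with a median of -0.49, close to the -0.42 of the members. No test of the difference between lists was made, and these are single arrays.

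**Figure D4:**
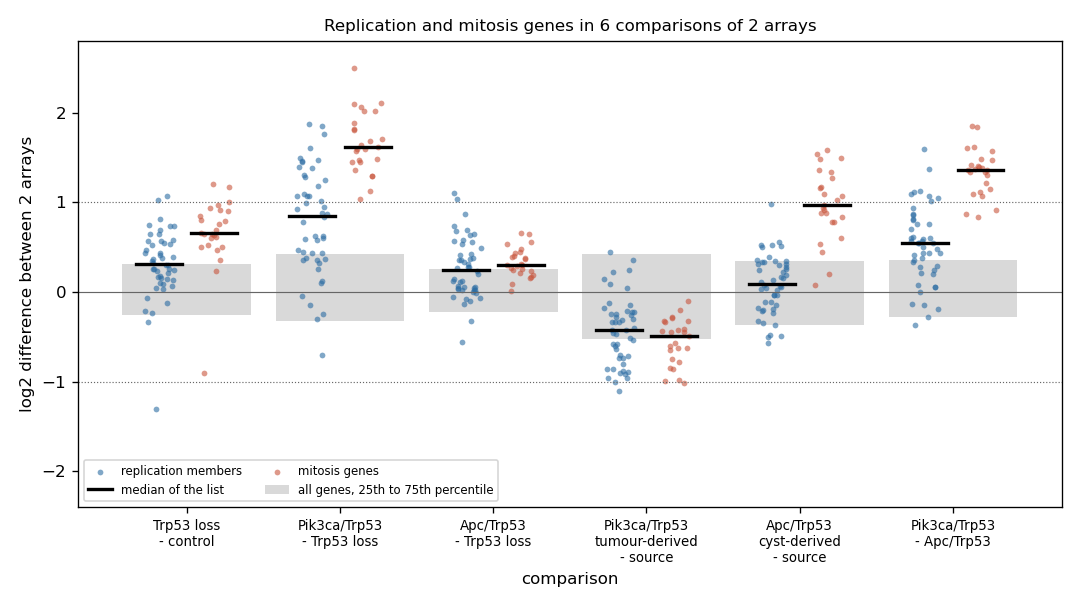
Log2 difference of each of 48 replication members (blue) and 25 mitosis genes (red) in 6 comparisons of 2 arrays, with the median of each list as a black bar, the middle 50% of all genes as a grey band and dotted lines at 2-fold. In the cyst-derived Apc/Trp53 culture minus its source the replication members centre on 0.09, within the grey band, and the mitosis genes on 0.97. With arrays scaled to the median of all probes the former median is -0.25 and the latter 0.63.

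A further 55 replication genes that are not members were measured to set the members in their pathway. Their median difference was 0.34 in Trp53 loss minus control, 0.35 in Pik3ca/Trp53 minus Trp53 loss, 0.12 in Apc/Trp53 minus Trp53 loss, -0.51 in the tumour-derived Pik3ca/Trp53 culture and -0.01 in the cyst-derived one, each minus its source. They thus differed less than the members in the Pik3ca/Trp53 comparison, where 9 of 54 were at least 2-fold higher and 1 was at least 2-fold lower. Among those with the largest range, Ccna2, the cyclin A of S and G2 phase, was 4.51-fold higher, Asf1b, a histone chaperone, 2.53-fold, Ticrr, an origin firing factor, 2.43-fold and Exo1, an exonuclease, 2.29-fold higher. Ctps, the CTP synthase gene, was 2.09-fold lower. In the tumour-derived Pik3ca/Trp53 culture Cdca7, a chromatin remodelling partner of Hells, was 4.23-fold lower than in its source, Cdc7, the kinase that triggers origin firing, 3.15-fold lower and Dna2, a nuclease and helicase, 3.01-fold lower. Asf1b, at 1.02-fold higher, was not.

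3 limma models with Benjamini-Hochberg adjustment were fitted over all detected genes where arrays could be combined. When the 3 cultures without Trp53 that had not been in an animal were set against the lone control array, 0 of 15025 genes were higher (0%) or lower (0%) at an adjusted p of 0.05, and 1263 genes (8.41%) had an unadjusted p under 0.05. 46 of 48 members were above 0, against 57% of all genes, with a median of 0.65 beside 0.08. Rrm2 was higher by 1.17 (SE 0.30, limma adjusted p = 0.446) and Rfc4, another small RFC subunit, by 0.85 (SE 0.24, limma adjusted p = 0.507), and Pola2 was lower, with a difference of -1.16 (SE 0.28, limma adjusted p = 0.418). These 3 were the members with an unadjusted p under 0.05, and none passed the adjusted threshold. Without Pik3ca/Trp53 the median of the members was 0.41 and 44 of 48 were above 0. The spread within control is not known, as it was a single array. The control lay in slide row 2 and the 3 cultures in row 1, so row and Trp53 loss cannot be told apart. These cultures are without Trp53 by their labels, and in Apc/Trp53 the Trp53 probe was still well above background.

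The 2 pairs gave 1 fit with terms for growth in the animal and for genotype, with 1 residual degree of freedom. For lesion-derived against source, limma called 0 of 14219 genes higher (0%) or lower (0%) and 559 genes (3.93%) had an unadjusted p under 0.05, of which 0 were members. The members' median was -0.13, beside -0.08 for all genes, and 10 of 48 were above 0, against 41.4% of all genes. For Pik3ca against Apc genotype it also called 0 genes (0% in either direction), with 739 at an unadjusted p under 0.05, 0 of them members. Here 35 of 48 members were above 0, against 52.2% of all genes, with a median of 0.32 beside 0.03. The Pik3ca/Trp53 arrays lay in slide column 2 and the Apc/Trp53 arrays in column 1, so column and genotype cannot be told apart. On simulated data of the same size these paired fits recovered 0% of 200 genes changed 8-fold (a log2 change of 3), so a count of 0 from them does not show that the members did not differ. The fit of Trp53-loss cultures against control recovered 26.5%.

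The signs of both pairs were also counted together. 27 of the 48 members were lower than the source in the tumour-derived Pik3ca/Trp53 culture and higher in the cyst-derived Apc/Trp53 culture (26.8% of 13932 genes measured in both pairs), 4 were the reverse (23.7%), 14 were lower in both (30.9%) and 3 were higher in both (18.6%). With arrays scaled to the median of all probes these counts were 9 (14.1%), 4 (28%), 34 (49.3%) and 1 (8.58%), so these counts depend on the scaling. The difference between the pairs was not tested.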

How the data were processed

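Each deposited scanner file gives the intensity of every spot after the background was subtracted. The software was Agilent Feature Extraction (version 11.0.1.1), per the file headers and the submitters' processing notes. The arrays had not been scaled to each other. RNA was extracted with an RNeasy kit, per the labels' protocols. The authors' deposited log2 value table covers 2047 probes, 0 of them of members, so it gave no value here. Differences between its columns matched those of the scanner values (r of 1). Its column medians were 0.03, -0.02, 0.15, -0.05, -0.32 and -0.20 in the order of the arrays, and its centring and probe selection are unstated.

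Control and outlier spots were left out, spots of a probe averaged, and each array's 75th percentile over its spots subtracted after log2. 0 spots were saturated. Of 56605 probes, 34566 were named through RefSeq. A gene's value in a comparison is the mean over its probes detected on 1 or more of those arrays. For a probe dim on 1 array, "at least" gives the fold with its signal set to that array's lowest detected level. 6 comparisons of 2 arrays have no test. limma (lmFit, eBayes) with Benjamini-Hochberg adjustment at 0.05 was used for the fits, on genes detected on at least 2 of 4 arrays (pairs) or 1 of 4 (Trp53-loss cultures against control), after tests on simulated data. All arrays were on 1 slide and in 1 scan. Their number limits the precision, and whether cultures were independent is not stated.

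The members and all gene lists were chosen with earlier results of these data known. Values on all arrays are given for the 2 members per role with the largest range (1 in roles of 3 genes) and for those whose probes disagreed by over 1 log2 unit, and for other lists at most the 4 genes with the largest range are named. Alternatives were scaling to the median, quantile normalization, normexp (offset 50), no filter or a stricter filter on dim probes, the brightest probe, the percentile over detected or over distinct probes (the latter chosen after seeing the data), raised dim signals, other limma settings and left-out arrays. The mean signal column was not in the files, so normexp used the median signal. Software was limma 3.58.1 and data.table (1.17.8) under R 4.3.3, and Python 3.11.15 with matplotlib 3.10.9, pandas 2.3.3 and numpy 2.4.6. Promoter windows are RefSeq's, on GRCm38.p6. The third pair of cultures was not analysed here.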

Additional observations from a re-analysis of the deposited data

Results flagged for a closer look

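The median difference of the members, lesion-derived minus source, was -0.42 in the Pik3ca/Trp53 pair and 0.0945 in the Apc/Trp53 pair, which have opposite signs. With arrays scaled to the median of all probes both were below 0, at -0.52 and -0.25, so the opposite signs depend on the scaling. The difference between the pairs was not tested, as each pair is 2 arrays.

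8 members were singled out because they differed in opposite directions, by at least 1.5-fold in 1 pair and by more than the median SD between probes of a gene (0.21) in the other. This SD is that of the Pik3ca/Trp53 pair, and the Apc/Trp53 pair had 0.13. How many of all genes meet the same rule was not counted, so the 8 are not shown to be more than the background share. The initiation genes Mcm10 and Gins2 differed by -0.86 and -0.64 in the Pik3ca/Trp53 pair, and by 0.51 and 0.56 in the Apc/Trp53 pair. The primase subunits Prim1 and Prim2 differed by -0.80 and -0.92 in the former and by 0.24 and 0.26 in the latter. Rfc5, of the clamp loader, differed by -1.0 and 0.28, and Rpa1, of the single-strand binding complex, by -0.73 and 0.52. The regulators Ccne1 and E2f2 differed by -0.73 and -0.89 in the Pik3ca/Trp53 pair and by 0.36 and 0.31 in the Apc/Trp53 pair. With arrays scaled to the median of all probes, the Apc/Trp53 values were 0.02 for Ccne1, 0.22 for Gins2, 0.17 for Mcm10 and 0.18 for Rpa1, and turned to -0.03 for E2f2, -0.10 for Prim1, -0.08 for Prim2 and -0.06 for Rfc5.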

How the results depend on the processing

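The medians of the members kept their sign under every alternative run in 5 of the 6 comparisons of 2 arrays. The exception was the cyst-derived Apc/Trp53 culture minus its source, whose median was -0.25 with arrays scaled to the median of all probes, against 0.09. That scaling moved the median of all genes to -0.37 there, and to 0.23 in Trp53 loss minus control, where the members' median was 0.50 against 0.32. It also moved the share of higher genes among all 2-fold differences from 58.4% to 37.5% in the former and from 44.9% to 56.9% in the latter. Under normexp background correction the median was 0.60 in Pik3ca/Trp53 minus Trp53 loss and 0.39 in Pik3ca/Trp53 minus Apc/Trp53. The cause of these shifts was not tested. Of 34 member differences of at least 2-fold, between 14 (normexp) and 34 (no filter on dim probes) stayed at least 2-fold, and 0 reversed under any of the 9 alternatives. For the 3 Trp53-loss cultures against control, quantile normalization gave 76 called genes in limma against 0. Leaving out each of these cultures in turn gave 0 to 0 called genes, and 44 to 46 members above 0. Without the replicate block for the pairing by genotype, limma called 0 genes, the same count as with it, and leaving out an array of the pairs leaves no residual degree of freedom. The noise of single arrays and the lack of replicates limit every comparison, and dim probes limit Orc1, Cdc45 and Uhrf1 most.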

Other observations

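5 genes linked to quiescent cells or to limits on S phase (such as Rrm2b, the p53-induced ribonucleotide reductase subunit, and Samhd1, which breaks down deoxynucleotides) were measured beside the members. Their median difference was 0.30 in Trp53 loss minus control, -0.28 in Pik3ca/Trp53 minus Trp53 loss and -0.36 in Apc/Trp53 minus Trp53 loss. In the lesion-derived cultures minus their sources it was 0.21 for Pik3ca/Trp53 and 0.05 for Apc/Trp53. Rrm2b had levels of -2.17 in control, -1.97 with Trp53 loss alone, -2.31 in the Pik3ca/Trp53 source and -3.10 in its tumour-derived line, -2.63 in the Apc/Trp53 source and -2.58 in its cyst-derived line, so it was not lower without Trp53 alone and was lowest in the tumour-derived culture.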
